A study of Mus musculus with 5 samples.

Results

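MHC class I chains and beta-2 microglobulin were followed in whole hearts of female NZB_W F1 mice with lupus nephritis and of healthy NZW mice. Of 7 genes listed (H2-K1, H2-D1, H2-Q4, H2-T22, H2-T23, H2-M3 and B2m), 4 had at least 1 probe set whose annotation names that gene alone, which gave 16 probe sets of the 45037 on the array that are not controls. H2-D1 had 9, H2-K1 had 4, B2m had 2 and H2-M3 had 1. H2-Q4, H2-T22 and H2-T23 had 0, because each of their probe sets also lists another gene, so they have no value of their own here. The genes were listed by family, with earlier results of these data known.

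The NZB_W group held 3 mice, aged 12 to 15 weeks, with moderate kidney injury by Austin scoring, and the NZW group held 2 healthy mice of matched age. NZB_W is the F1 cross of the NZB and NZW strains and develops a lupus-like disease spontaneously. All mice were untreated, and all hearts were bled and perfused with saline before RNA was taken for Affymetrix Mouse Genome 430 2.0 arrays. Since every diseased mouse was of the F1 cross and every healthy mouse was NZW, strain and disease cannot be told apart, and with 5 arrays in all each value below is of limited precision.

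A class I molecule is a polymorphic heavy chain held by a light chain, beta-2 microglobulin, and it shows peptides cut in the cytosol to CD8 T cells and to receptors of NK cells. H2-K1 and H2-D1 encode the classical heavy chains, which nearly all nucleated cells carry and which interferons and NF-kappaB induce, while H2-M3, H2-T23, H2-T22 and H2-Q4 are less polymorphic relatives. Beta-2 microglobulin lies on another chromosome and is needed for the heavy chains to reach the cell surface. Heart muscle cells carry little class I at rest, and endothelial cells and leukocytes in the tissue carry more. NZB mice have the H2 haplotype d and NZW mice the haplotype z, so an NZB_W mouse has a copy of each, and array probes written to the sequence of a given allele can bind other alleles less well.

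Sequences before the start sites of the 4 measured genes are shown because they hold control elements that class I genes are known to share. They are the RefSeq windows for GRCm38.p6 (C57BL/6J, the reference strain, not NZB or NZW), 250 bases before each start, 5′ to 3′ in the direction of transcription. Capitals mark matches to GGGATTCCC (the kappaB palindrome of class I enhancers), to GAANNGAAA or GAAANNGAA (partial spellings of the interferon-stimulated response element) and to TGACGC (an X2 box), on either strand.
H2-K1 (chr17:34000348-34000597, - strand): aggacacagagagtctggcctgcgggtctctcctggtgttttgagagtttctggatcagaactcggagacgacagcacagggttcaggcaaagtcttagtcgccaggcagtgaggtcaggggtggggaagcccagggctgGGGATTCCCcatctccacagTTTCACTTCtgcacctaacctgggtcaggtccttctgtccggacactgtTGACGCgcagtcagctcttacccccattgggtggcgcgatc
H2-D1 (chr17:35262844-35263093, + strand): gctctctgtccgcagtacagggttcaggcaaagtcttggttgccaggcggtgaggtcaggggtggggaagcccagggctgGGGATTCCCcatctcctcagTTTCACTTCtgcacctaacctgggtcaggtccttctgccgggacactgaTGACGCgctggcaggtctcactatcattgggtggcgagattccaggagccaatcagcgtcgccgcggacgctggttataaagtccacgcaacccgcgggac
H2-M3 (chr17:37269984-37270233, + strand): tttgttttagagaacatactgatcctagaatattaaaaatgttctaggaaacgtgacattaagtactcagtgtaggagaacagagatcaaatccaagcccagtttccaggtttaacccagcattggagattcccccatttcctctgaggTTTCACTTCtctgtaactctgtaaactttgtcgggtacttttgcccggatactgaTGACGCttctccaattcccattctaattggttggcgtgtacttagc
B2m (chr2:122147437-122147686, + strand): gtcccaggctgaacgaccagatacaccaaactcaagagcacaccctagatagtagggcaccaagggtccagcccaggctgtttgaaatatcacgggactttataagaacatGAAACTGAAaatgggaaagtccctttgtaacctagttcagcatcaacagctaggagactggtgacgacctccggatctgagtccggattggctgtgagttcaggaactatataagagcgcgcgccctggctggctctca

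The letters were chosen after these windows were read, and both strands of all 32851 promoter windows of 300 bases were searched. The kappaB palindrome was present in H2-K1 and H2-D1 and in 0.353% of all windows. GAANNGAAA was present in H2-K1, H2-D1, H2-Q4 and H2-M3 (7.52% of all windows), and GAAANNGAA in B2m, H2-T22 and H2-T23 (8.56%). TGACGC was present in H2-K1, H2-D1 and H2-M3, and in H2-Q4 only after the start site (7.4% of all windows). A CCAAT box was present in all 7 promoters and in 37.4% of all windows. No 2 of these matches overlapped in the windows of the 7 genes.

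Of the 5 arrays, NZB_W array 3 stood apart before any test. It gave the highest value of all 5 arrays on 16 of 16 class I and B2m probe sets. The share of all probe sets that were highest on that array was not counted. The difference between the 5′ and 3′ probe sets of the beta-actin control, a sign of RNA integrity, came to -1.31 there and -1.19 in NZW array 2, while the remaining arrays lay between -0.89 and -0.88. Its correlations with the other arrays over 11902 genes ran from 0.972 to 0.982, against a highest value of 0.990 to 0.993 for each of the others. The part of RNA integrity in the differences below was not tested.

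Class I and B2m transcripts were higher in NZB_W hearts on nearly every probe set, by about the same amount in most of them and by far more on 3 probe sets of H2-D1. Of the 16 probe sets, 15 had a higher mean in NZB_W (against 49.9% of all probe sets) and 1 a lower mean, with a median log2 difference of 0.75, against a median of 0 over all 45037 probe sets. In 13 of the 16 every NZB_W array lay above both NZW arrays, against 5.76% of all probe sets. No probe set passed limma's test after Benjamini-Hochberg adjustment at 0.05 (0 of 16, with adjusted p from 0.606 to 0.996, against 0.00444% of all probe sets), and 5 of 16 had an unadjusted p under 0.05, all of them higher in NZB_W. Of all probe sets 4.02% had such a p in either direction and 1.85% were higher with it. The 16 values are not independent, since probe sets of a gene read the same RNA and those ending in _x_at can also bind related transcripts. Without NZB_W array 3 the median difference was 0.49 with 13 of 16 free of overlap, and without both NZB_W array 3 and NZW array 2 it was 0.36 with 15 of 16. In whole-heart RNA, more cells that carry class I and more class I RNA per cell cannot be told apart.

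**Figure D1:**
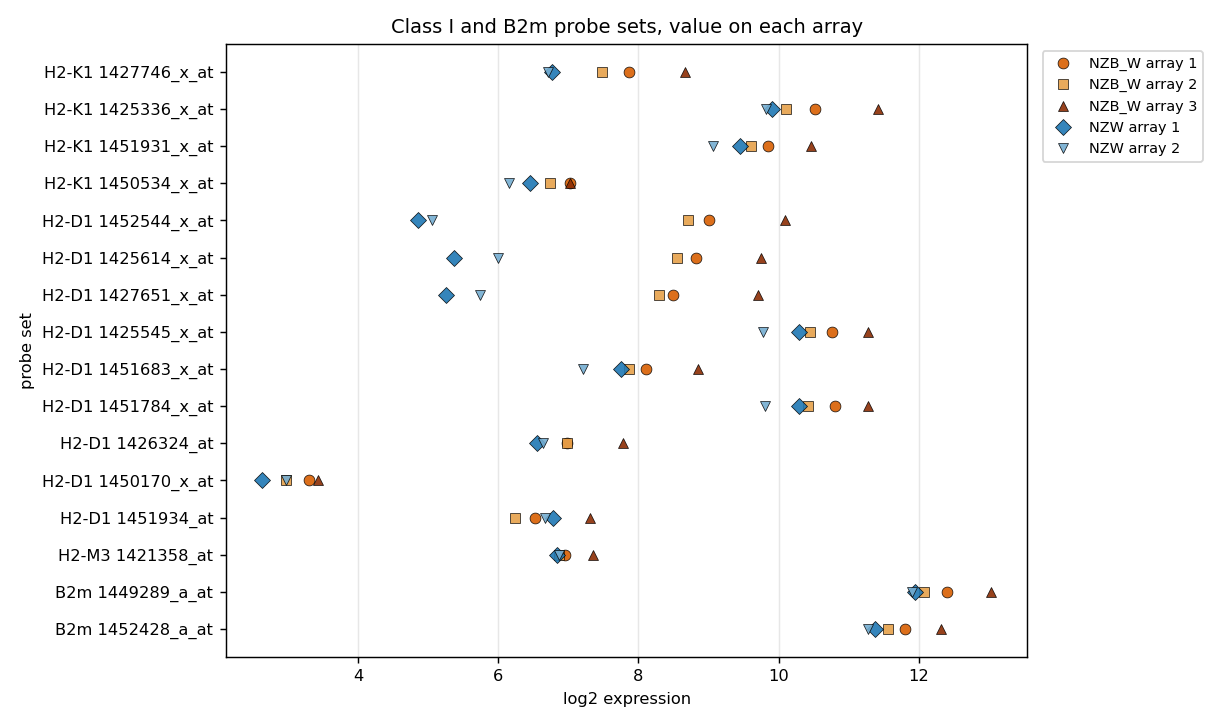
Log2 expression (horizontal axis) of the 16 probe sets of H2-K1, H2-D1, H2-M3 and B2m (vertical axis), with a point for each of 3 NZB_W and 2 NZW arrays. NZB_W array 3 is rightmost in all 16 rows, and the widest gaps between the groups are in the H2-D1 rows 1452544_x_at, 1425614_x_at and 1427651_x_at.

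H2-D1 was read by 9 probe sets, each listed with its own GenBank record, and they fell far apart in the difference they reported. The probe set 1452544_x_at read 9.01, 8.71 and 10.09 (log2) in the NZB_W hearts, arrays 1 to 3, against 4.85 and 5.05 in the NZW hearts, arrays 1 and 2. The lowest NZB_W array thus lay 3.65 above the highest NZW array, and the NZW values were just above their array medians of 4.64 and 4.62. The mean difference was 4.32 (SE 0.46, 95% interval 3.05 to 5.58, limma adjusted p = 0.606), or 19.9-fold. Only 3 of 45037 probe sets had a larger difference, and 10 (0.0222%) had one above 3, a mark set after the values were seen.

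The probe set 1425614_x_at gave 8.83, 8.54 and 9.75 in NZB_W hearts against 5.37 and 6.00 in NZW hearts, a difference of 3.36 (SE 0.44, adjusted p = 0.814). On 1427651_x_at the values were 8.50, 8.29 and 9.71 against 5.25 and 5.73, a difference of 3.34 (SE 0.51, adjusted p = 0.876). In both, the lowest NZB_W array lay 2.55 above the highest NZW array, and on all 3 of these probe sets NZW array 1 was the lower of the NZW arrays. All 3 were above the array median on every array, so they would have passed a brightness filter in either group.

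The brightest H2-D1 probe set, 1451784_x_at, gave a smaller difference. It read 10.81, 10.42 and 11.27 in NZB_W against 10.29 and 9.81 in NZW, which is 0.78 higher (SE 0.31, adjusted p = 0.876) or 1.72-fold. The gap between NZB_W array 2 and NZW array 1 was only 0.13, well inside the spread within each group. Leaving out NZB_W array 3 made the difference 0.57, and leaving out NZW array 2 made it 0.54. Next to it, 1425545_x_at and 1451683_x_at differed by 0.80 (SE 0.31) and 0.79 (SE 0.37), and 1426324_at by 0.66 (SE 0.29). The dimmest, 1450170_x_at, was below the array median on all 5 arrays and differed by 0.43 (SE 0.19), with overlap between the groups. The last, 1451934_at, had values of 6.52, 6.23 and 7.30 in NZB_W against 6.78 and 6.66 in NZW, a difference of -0.04 (SE 0.35), and it was the sole probe set whose mean was lower in NZB_W.

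**Figure D2:**
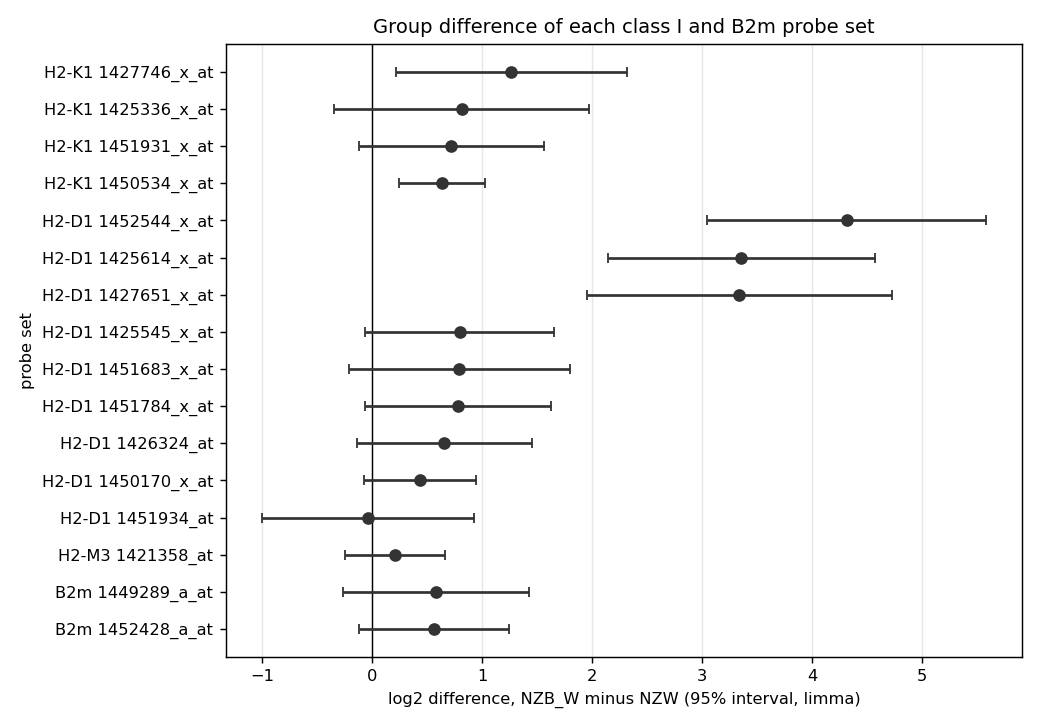
Log2 difference between NZB_W (n = 3) and NZW (n = 2) on the horizontal axis for each of the 16 probe sets, as the mean difference (point) with limma's 95% interval (bar). The H2-D1 rows 1452544_x_at, 1425614_x_at and 1427651_x_at lie at 4.32, 3.36 and 3.34, and the other 13 between -0.04 and 1.27.

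Whether probe sets of a gene disagreed was tested directly, by taking each one's value minus that of the gene's brightest probe set on the same array and comparing these differences between the groups. Over 16752 such pairs of all genes, 10 (0.0597%) passed limma's test at an adjusted p of 0.05, and 1 of the 12 pairs of H2-D1, H2-K1 and B2m was among them. At an unadjusted p under 0.05 there were 5 of 12, against 4.36% of all pairs. The pair that passed the adjusted test was 1452544_x_at of H2-D1 against 1451784_x_at. The log2 value of 1452544_x_at minus that of 1451784_x_at came to -1.80, -1.72 and -1.18 in NZB_W against -5.44 and -4.75 in NZW. The group difference of this pair was 3.53 (SE 0.27, 95% interval 2.87 to 4.19, adjusted p = 0.0193), an 11.6-fold change in the ratio of the 2 signals, with no overlap. The part of allele sequence under the probes in this disagreement was not tested. The size held between 3.19 and 3.88 with any single array left out, but the call did not, with an adjusted p of 0.172 without NZB_W array 1, 0.191 without NZB_W array 2, 0.422 without NZW array 1 and 0.277 without NZW array 2. Without NZB_W array 3 the adjusted p was 0.0489.

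The other H2-D1 pairs split into 3 kinds. Relative to 1451784_x_at, 1425614_x_at differed by 2.57 (SE 0.33) and 1427651_x_at by 2.56 (SE 0.34). Neither passed (adjusted p = 0.219 for each), and they had 95% intervals from 1.76 to 3.38 and from 1.72 to 3.39. By contrast, 1425545_x_at differed from it by 0.01 (95% interval -0.24 to 0.26) and 1451683_x_at by 0.01 (-0.30 to 0.32). For 1426324_at the pair difference was -0.13 (-0.64 to 0.39) and for 1450170_x_at -0.35 (-0.99 to 0.29). The remaining probe set, 1451934_at, went the other way relative to 1451784_x_at, at -0.82 (SE 0.16, adjusted p = 0.653), with all 3 NZB_W arrays below both NZW arrays.

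**Figure D3:**
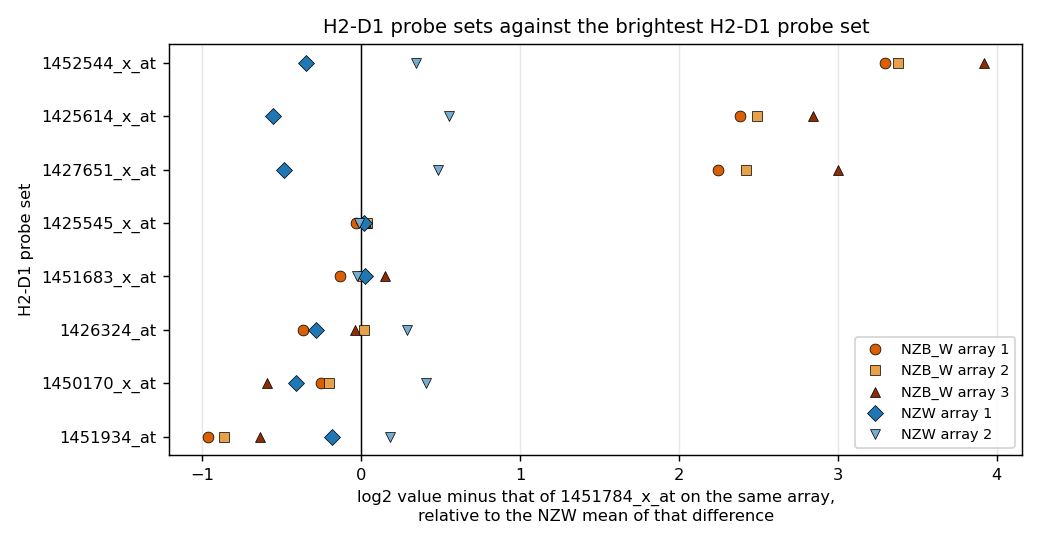
Each H2-D1 probe set's log2 value minus that of the brightest H2-D1 probe set, 1451784_x_at, on the same array, shown relative to the NZW mean of that difference (horizontal axis), with a point per array. For 1452544_x_at, 1425614_x_at and 1427651_x_at all 3 NZB_W arrays lie far to the right of both NZW arrays, 1425545_x_at lies near 0 on every array, and 1451934_at lies to the left in NZB_W.

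H2-K1, the other classical heavy chain, was higher in NZB_W on all 4 of its probe sets, each without overlap. The brightest, 1425336_x_at, read 10.51, 10.10 and 11.41 across NZB_W hearts against 9.91 and 9.82 in NZW hearts. The mean was 0.81 higher (SE 0.42, adjusted p = 0.876), or 1.76-fold, and NZB_W array 3 was 0.90 above the next array. Without that array the difference was 0.45. The largest H2-K1 difference was on 1427746_x_at, with 7.86, 7.47 and 8.66 against 6.77 and 6.70, which is 1.27 higher (SE 0.39, adjusted p = 0.876) or 2.40-fold. The lowest NZB_W value there exceeded the highest NZW value by 0.71. The other H2-K1 probe sets, 1451931_x_at and 1450534_x_at, differed by 0.72 (SE 0.31) and 0.64 (SE 0.14).

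Probe sets of H2-K1 lay closer to each other than those of H2-D1. Relative to 1425336_x_at, 1427746_x_at differed by 0.45 between the groups (SE 0.11, adjusted p = 0.860), from -2.65, -2.63 and -2.75 in NZB_W to -3.15 and -3.11 in NZW. On 1451931_x_at the pair difference was -0.09 (95% interval -0.51 to 0.33) and on 1450534_x_at -0.18 (-0.94 to 0.59). On 1450534_x_at NZB_W array 3 was level with NZB_W array 1, at 7.03 on both, where the other H2-K1 probe sets placed it well above.

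B2m, the light chain shared by all class I molecules, gave nearly the same difference on its 2 probe sets. The brighter, 1449289_a_at, read 12.41, 12.07 and 13.03 in NZB_W against 11.94 and 11.90 in NZW. The other, 1452428_a_at, read 11.80, 11.55 and 12.32 against 11.38 and 11.28. All NZB_W arrays were above both NZW arrays on each, by margins of 0.13 and 0.18. The differences were 0.58 (SE 0.31, adjusted p = 0.876) and 0.56 (SE 0.25, adjusted p = 0.876), or 1.49-fold and 1.48-fold. Set against each other the B2m probe sets differed by -0.01, with a 95% interval from -0.29 to 0.26. On the brighter of them the difference was 0.31 without NZB_W array 3.

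H2-M3, which presents formylated peptides of bacterial and mitochondrial origin, differed least. Its probe set 1421358_at read 6.95, 6.87 and 7.35 in NZB_W against 6.83 and 6.87 in NZW, so the groups met at NZB_W array 2 and NZW array 2. The difference was 0.21 (SE 0.17, 95% interval -0.25 to 0.66, adjusted p = 0.876), and 0.06 without NZB_W array 3. In the gene-level fit, with the brightest probe set standing for each of 11902 genes, none of the 4 measured genes passed limma's test (0 of 4, against 0.0084% of genes), and H2-D1 had an unadjusted p of 0.0487.

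A further 8 probe sets list a member together with other genes and cannot be assigned to any of them. Of these, 1424948_x_at, which lists H2-K1 and H2-D1, was at 8.08, 7.77 and 9.17 in NZB_W against 7.47 and 7.41 in NZW (difference 0.90, SE 0.47). A probe set that lists H2-Q5 and H2-K1, 1451593_at, differed by 0.34 (SE 0.13), also without overlap. The others overlapped between the groups. The brighter of those that list H2-T23, 1449556_at, differed by -0.20 (SE 0.18), and the brighter of those that list H2-T22, 1449875_s_at, by 0.28 (SE 0.42). The only probe set that lists H2-Q4, 1451644_a_at, was below the array median on all 5 arrays. The adjusted p was over 0.87 for all 8.

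Genes that cut and load peptides for class I were also higher in NZB_W. Of 13 listed, 12 had a probe set of their own and all 12 were higher (against 45.5% of all genes), 7 of them without overlap, against 7.6% of all genes, with a median log2 difference of 0.28, against -0.01 over all genes. None passed limma's adjusted test at gene level (0 of 12, against 0.0084% of all genes). An unadjusted p under 0.05 was found for 2, against 2.51% of genes that were higher with such a p. Psmb8, a catalytic subunit of the immunoproteasome, was at 7.67, 7.49 and 8.23 in NZB_W against 7.05 and 7.11 in NZW (difference 0.72, SE 0.24). Tap2, a chain of the transporter that carries peptides into the endoplasmic reticulum, was at 7.08, 7.08 and 7.52 against 6.83 and 6.74 (difference 0.44, SE 0.16). Pdia3, the disulfide isomerase of the loading complex, differed by 0.52 (SE 0.23), and Psme1, a proteasome activator subunit, by 0.16 (SE 0.07). The list's median was 0.18 without NZB_W array 3 and 0.17 without NZW array 2.

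Transcription factors that act on the promoter elements shown above were split in direction. Of 10 regulators with a probe set of their own, 9 passed the brightness filter. Of these 9, 5 were higher (against 45.5% of all genes) and 4 lower. None was past limma's adjusted threshold (0 of 9, against 0.0084% of all genes). Their median was 0.01, which was -0.11 without NZB_W array 3. Relb, a subunit of NF-kappaB, was the sole member with an unadjusted p under 0.05 (1 of 9, against 2.51% of all genes higher with such a p), at 5.22, 5.20 and 5.53 in NZB_W against 5.06 and 4.61 in NZW (difference 0.48, SE 0.18). Rfx5, a DNA-binding factor of the X box, was lower by a log2 difference of -0.22 (SE 0.11) without overlap, and Irf1, an interferon-induced activator of class I genes, differed by -0.02. Of 14 other class I-like genes with a probe set of their own, 9 passed the brightness filter. Of these 9, 7 were higher and 2 lower, with a median of 0.04, which was -0.04 without NZB_W array 3. None passed limma's adjusted test (0 of 9, against 0.0084% of all genes). Hfe, the class I-like protein that regulates iron uptake, was at 8.01, 8.07 and 8.16 against 7.59 and 7.15 (difference 0.71, SE 0.15, adjusted p = 0.721), and it was the sole member of that list without overlap (1 of 9, near the 7.6% of all genes) and with an unadjusted p under 0.05. That list also held H2-Ke6, a hydroxysteroid dehydrogenase gene of the MHC region that is not class I (difference -0.10, SE 0.08).

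Transcripts of leukocytes and red blood cells varied between arrays alongside the median of the class I and B2m probe sets. So did interferon-stimulated genes, except that the NZW arrays came in the reverse order. Against the counts that follow, 45.5% of all genes were higher, 7.6% were higher without overlap, 2.51% were higher with an unadjusted p under 0.05, and 0.0084% passed limma's adjusted test. The MHC class II genes that passed the brightness filter stood higher in 6 of 6 cases, 5 of them without overlap (median 1.31). Linear signal summed over the 7 with a probe set of their own was 2064 to 5144 in NZB_W and 1111 to 1737 in NZW. The 7 include Ciita, which was below the array median on all arrays. All 16 interferon-stimulated genes that passed the filter were higher (median 0.62), 10 of them without overlap. Sums over the 17 with a probe set of their own were 2983 to 6788 in NZB_W against 2113 and 2647 in NZW arrays 1 and 2. The 17 include Mx1, which was below the array median on all arrays. All 4 general leukocyte markers were higher without overlap (median 1.11, sums of 690.0 to 1785 against 432.4 to 499.9), among them Ptprc, the pan-leukocyte CD45, by 1.29 (SE 0.51).

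All 10 macrophage markers were higher, 7 without overlap (median 0.71, sums of 3574 to 6111 against 2327 to 3217). Of these, Itgam, the integrin CD11b, passed the brightness filter only through the NZB_W arrays and so had to differ. Without it 9 of 9 were higher and 6 without overlap, with a median of 0.64. No gene of these 4 lists passed limma's adjusted test, while 4 of 6 class II genes, 6 of 16 interferon-stimulated genes, 1 of 4 leukocyte markers and 2 of 9 macrophage markers other than Itgam had an unadjusted p under 0.05.

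Red blood cell transcripts differed most in size of the lists examined, in hearts that had been bled and perfused. Summed over 3 genes they came to 993.6, 276 and 1437 in NZB_W against 168 and 146.1 in NZW. The 3 include Hba-a1, which was below the array median on all arrays. The median over the class I and B2m probe sets put the arrays in the same order as these sums. Not every probe set did, as 6 of the 16 were lowest on NZW array 1. Alas2, the erythroid enzyme of heme synthesis, read 9.70, 7.90 and 10.11 in NZB_W against 7.14 and 6.95 in NZW (difference 2.19, SE 0.71, limma adjusted p = 0.859). Slc4a1, the band 3 anion exchanger of the red cell membrane, differed by 2.71 (SE 1.07) and passed the brightness filter only through the NZB_W arrays. Neither passed limma's adjusted test (0 of 2), and Alas2 alone had an unadjusted p under 0.05. Without Slc4a1 the list's difference rests on Alas2 alone.

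NZB_W array 3 had the highest sum in each of these 5 lists, as it had the highest class I values. Its sum was also highest for peptide loading genes, class I regulators, other class I-like genes, neutrophils, endothelial cells and fibroblasts. No gene in the lists of receptors for class I, NK cells and B cells passed the brightness filter, so their sums are not read here. NZB_W array 3 was not highest for T cells, and it was lowest for heart muscle. Without it the medians were 0.93 for class II, 0.40 for interferon-stimulated genes, 0.67 for leukocytes, 0.52 for macrophages and 1.68 for red blood cells. Without both that array and NZW array 2 they were 0.62, 0.43, 0.65, 0.36 and 1.72 in the same order. The macrophage and red blood cell values include Itgam and Slc4a1, which passed the brightness filter only through the NZB_W arrays. Beside Slc4a1 the red blood cell values hold only Alas2. The part of these cell types, blood content and interferon-stimulated genes in the class I differences was not tested.

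Lists of the other cell types had medians nearer to 0. The 5 endothelial markers had sums of 2029 to 2535 in NZB_W and 2060 to 2098 in NZW, with NZB_W array 3 highest. Their median difference was 0.08, and it ran from -0.01 without NZB_W array 3 to 0.18 without NZW array 1. Pecam1 (CD31) and Cdh5 (VE-cadherin), both junction proteins of endothelium, were the 2 of 5 higher without overlap, by 0.43 (SE 0.22) and 0.21 (SE 0.12). Of all genes 7.6% were higher without overlap. Kdr, Tek and Vwf overlapped between the groups, with differences of 0.08 (SE 0.24), 0.03 (SE 0.08) and -0.01 (SE 0.30). Heart muscle markers, which show the tissue to be heart, had sums of 84980 to 89940 against 89100 to 90350, with a median of -0.03 over 6 genes. The 4 fibroblast markers had a median of 0.02, which ran from -0.20 to 0.09 with single arrays left out and was -0.37 without both NZB_W array 3 and NZW array 2. The 3 neutrophil markers had a median of -0.16, which ran from -0.74 (NZB_W array 3 left out) to 0.23 (NZB_W array 2 left out), and all 3 overlapped between the groups. No NK cell marker (0 of 4) and no B cell marker (0 of 3) passed the brightness filter.

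The T cell genes Cd3e and Cd4 differed by -0.01 (SE 0.08) and 0.04 (SE 0.06), with sums over 4 T cell genes of 128.6 to 144.5 against 131.4 to 132.7, and Cd3g was below the array median on all arrays. Of 12 receptors for class I with a probe set of their own, 10 were below the median on all 5 arrays, among them Cd8b1, the CD8 beta chain, and the NK receptor chains Klrd1 and Klrk1. None passed the brightness filter (0 of 12), so these arrays give no measure of how receptors for class I varied.

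**Figure D4:**
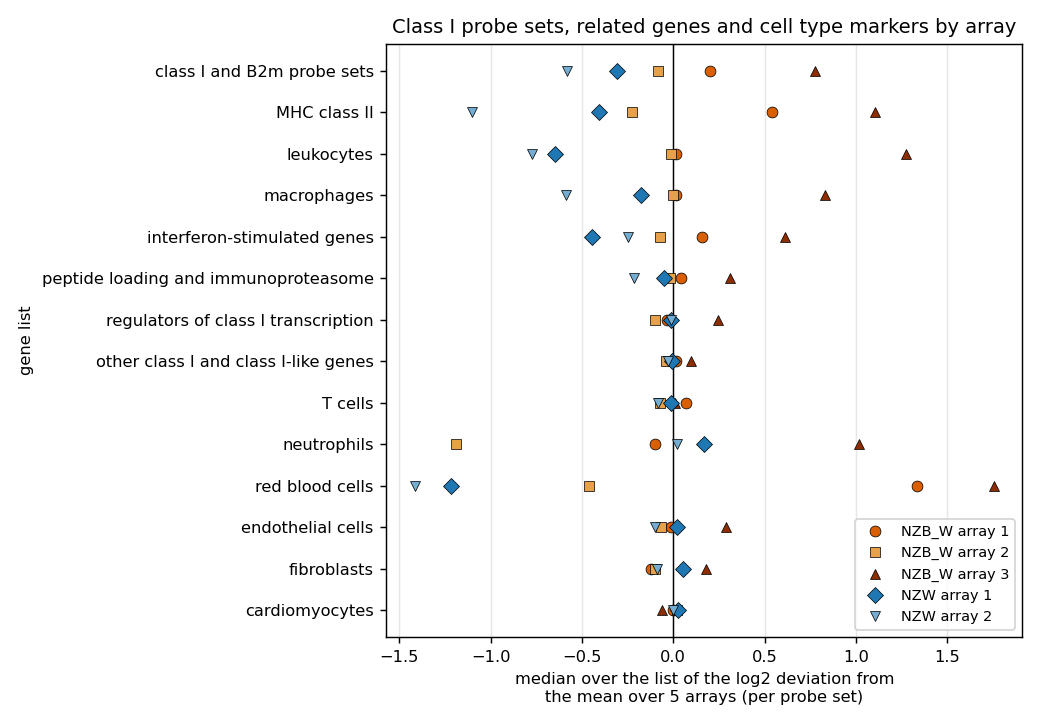
For each list (vertical axis), the median over its probe sets of the log2 deviation from the probe set's mean over 5 arrays (horizontal axis), with a point per array. Class I and B2m lay at 0.20, -0.08 and 0.78 on NZB_W arrays 1, 2 and 3 and at -0.31 and -0.58 on NZW arrays 1 and 2. NZB_W array 3 was highest in every row except T cells and cardiomyocytes, and in the cardiomyocyte row it was lowest.

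The genes whose pattern over the 5 arrays lay nearest to that of B2m were Cd93, Pabpc1, Itgax, Bcl6b and Ifi47, with root mean square distances of 0.058, 0.066, 0.067, 0.080 and 0.086 on the log2 scale, against a median of 0.43 over all genes. Cd93 is a receptor of endothelial and myeloid cells, Itgax is the integrin CD11c of myeloid cells, Bcl6b is a transcriptional repressor found in endothelium, Ifi47 is an interferon-induced GTPase and Pabpc1 binds poly(A) tails. Itgax passed the brightness filter only through NZB_W arrays 1 and 3 and so had to be higher there. H2-K1, H2-D1 and H2-M3 lay at distances of 0.165, 0.181 and 0.237 from B2m by their brightest probe sets. With 5 arrays, of which 1 stands apart, such distances only describe these arrays.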

How the data were processed

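Expression was measured in 5 hearts, 1 array each, and the titles call the arrays biological replicates. The deposited values are log2 expression per probe set, normalized by the authors before deposit. RMA, GCRMA and Partek are named, without versions, in the submitters' processing notes, which do not say what each was used for. RMA and GCRMA correct background differently, which matters most for dim values. No scanner files were used here, so there are no detection calls.

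Probe sets were assigned to a gene where the platform annotation gives 1 symbol; 34945 do, 932 give several and 9160 none, and 34754 symbols matched RefSeq (GRCm38.p6) by Entrez identifier with 0 changed. Differences are NZB_W minus NZW, tested two-sided with limma 3.58.1 in R 4.3.3 (lmFit, eBayes) and Benjamini-Hochberg adjustment over all features: 45037 probe sets with no brightness filter, 16752 within-gene pairs, and 11902 genes (brightest probe set, above the array median on at least 2 arrays). The fits were tested on simulated data. A sum is that of 2 to the power of the log2 values, and SE is limma's. Figures were drawn with matplotlib 3.10.9.

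The members, lists and tests were chosen with earlier results of these data known. Per-array values were given for each member's brightest probe set and those differing by over 1, and up to 4 genes of each list were named by smallest p; other names (among them Irf1, Cd8b1, Cd3g, Ptprc and the remaining member probe sets) were picked for their role or after their values were seen. Alternatives covered normalization, filters, variance model, array weights, a replicate block, probe set type, threshold and leaving out arrays.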

Additional observations from a re-analysis of the deposited data

How the results depend on the processing

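With 3 arrays against 2, no class I or B2m probe set (0 of 16) and no gene (0 of 4) passed under any alternative tried, with the lowest adjusted p of a member probe set from 0.214 to 0.872, while the difference of each measured gene's brightest probe set, and of 1452544_x_at, 1425614_x_at, 1427651_x_at and 1427746_x_at, kept its direction wherever it was computed. When probe sets with the suffix _x_at, _a_at or _s_at were dropped, 3 member probe sets were left, with a median difference of 0.206, 1 of 3 free of overlap and 0 within-gene calls. Leaving out single arrays put the median difference at 0.49 to 0.95, and it was 0.36 without both NZB_W array 3 and NZW array 2. The within-gene count was 0 to 1 with single arrays left out and 0 without both arrays, and 1 under the other settings that kept all arrays and probe set types. With the second brightest H2-D1 probe set as reference, added after the data were seen, the pair 1452544_x_at differed by 3.52 (adjusted p = 0.0199). Over all features the calls ranged from 0 to 6 probe sets (2 as reported), 0 to 18 pairs (10) and 0 to 8 genes (1). With a replicate block, in which NZB_W array 3 has no partner and drops out of the contrast, the median was 0.49, the within-gene count 1, and no call on a member changed. Arrays that share a number deviated together with correlations of -0.258 (number 1) and 0.102 (number 2), so the numbers were not taken as pairs. In the first 250 bases of the windows TGACGC matched 3 promoters instead of 4.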
